A study of Homo sapiens with 2 samples.

Results

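The MYC and MYB transcription factor families were examined in SUM159 cells resistant to doxorubicin. SUM159 is a human triple-negative breast cancer line, and doxorubicin is a topoisomerase II poison. The 10 genes were taken by their symbols, out of 23368 symbols in the count files, and all of them were found. They are MYC and MYCN, their obligate partner MAX, the antagonists MXI1, MXD1, MXD3 and MNT, and the MYB paralogs MYB, MYBL1 and MYBL2. The data are 2 polyA RNA-seq libraries, replicates 1 and 2 of 1 condition, from wild-type cells grown attached and selected by short exposure to rising doses of the drug and recovery without it. The library totals were 23044084 counts for replicate 1 and 17985508 for replicate 2. No untreated library was analysed here, so levels and ratios in resistant cells are given, without a change against sensitive cells. Nothing states that the libraries are separate cultures or resistant lines, so their spread may be technical.

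MYC and MYCN are transcription factors of growth and proliferation that bind DNA only as dimers with MAX, at the E-box. MXI1, MXD1, MXD3 and MNT compete for MAX and repress transcription from the same sites. In the MYB family, MYB is best known as a regulator of immature blood cells, MYBL1 of meiotic germ cells, and MYBL2, or B-MYB, is used by dividing cells in general, where it joins the MuvB complex to activate mitotic genes. MYC amplification or overexpression is common in triple-negative breast cancer.

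Promoter sequences of RefSeq (GRCh38.p14, not the build of the counts) were held for 8 of the 10 members, in 11 windows of 250 bases before to 50 after the start. They were searched on both strands for the E-box CACGTG, for TTTGAA and TTCGAA, forms of the CHR element bound by MuvB, and for TTTGGCGC, TTTCCCGC, TTTGCCGC and TTTCGCGC, forms of the E2F site. MNT and MYBL2 hold the E-box, which is present in 7.26% of 35116 promoters. Its first base lies 193 bases before the start of MNT and 243 bases before that of MYBL2. MYCN alone among the 8 holds any of the E2F forms searched, found in 3.31% of promoters. Its TTTGGCGC and TTTCGCGC matches, on opposite strands, overlap each other. Other forms of the site, bases outside the windows and the members without a held promoter were not searched. MYCN also holds TTTGAA, which is in 15.2% of promoters, and none of the 8 members searched holds TTCGAA, which is in 1.45%. These are matches of letters and not measured binding. The stretches with the E-box and the E2F forms are shown because MYBL2, MNT and MYCN span the range of levels described next, from high to barely detected, and the capitals mark the matches.
MYBL2, chr20:43666864-43666963, plus strand: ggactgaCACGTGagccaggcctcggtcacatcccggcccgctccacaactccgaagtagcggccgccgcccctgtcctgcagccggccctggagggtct
MNT, chr17:2401201-2401300, minus strand: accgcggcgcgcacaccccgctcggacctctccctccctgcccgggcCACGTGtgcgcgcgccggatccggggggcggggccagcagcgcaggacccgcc
MYCN, chr2:15940330-15940429, plus strand: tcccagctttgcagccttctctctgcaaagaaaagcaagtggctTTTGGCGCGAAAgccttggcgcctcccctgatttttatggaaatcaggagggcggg

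MYC was the most abundant member by counts, while MYCN was at the limit of detection. MYC (chromosome 8, 128747680 to 128755197 in GRCh37) had 9119 counts in replicate 1 against 6544 in replicate 2. Scaled to 1000000 counts of each library, these are 396 and 364 CPM, or 379.8 ± 22.5 CPM (SD, n = 2). Among the 12340 genes whose mean count reached 20, the minimum used in the bulk analysis of the study, MYC stood at the 96.9th percentile of CPM. MYCN, the paralog known from neuroblastoma, is at 16080672 to 16087129 of chromosome 2 and had 3 counts and 0 counts. For replicate 2 a one-sided limit of 3 counts, set for counting error alone, corresponds to 0.167 CPM, and the upper bound of the 2-sided exact 95% interval is 0.205 CPM. Summed over both libraries and divided by exonic length, MYC exceeded MYCN 2355-fold, with an exact 95% counting interval from 806 to 11420. The ratio was 1371 in replicate 1 alone, 3666 with the longest transcript and 5221 without any length. MYCN overlaps the antisense gene MYCNOS, which had 0 counts in both libraries. The remaining paralog of the family, MYCL, listed as MYCL1, had 13 and 5 counts. MYC was thus the paralog that supplied nearly all counts of its family in both libraries.

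MAX, the partner that MYC and its antagonists share, was below MYC in both libraries. Located at 65472892 to 65569413 of chromosome 14, it had 94.3 and 82.1 CPM, or 88.2 ± 8.62 CPM (SD, n = 2). Genes of different length can be compared only per length, so CPM were also divided by exonic length in kilobases (RPKM). On this scale MYC had 62.2 ± 3.69 and MAX 14.1 ± 1.38 RPKM (SD, n = 2 each). The ratio of MYC to MAX was 4.30 in replicate 1, with a counting interval from 4.10 to 4.51, and 4.54 in replicate 2, with an interval from 4.29 to 4.81. The libraries thus gave nearly the same ratio of MYC to MAX RNA. Exons of MAX overlap those of FNTB on the opposite strand over 13.1% of its exonic length, and FNTB itself had 6 and 10 counts. Whether reads in such overlaps were counted was not given in the sources used here.

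**Figure D1:**
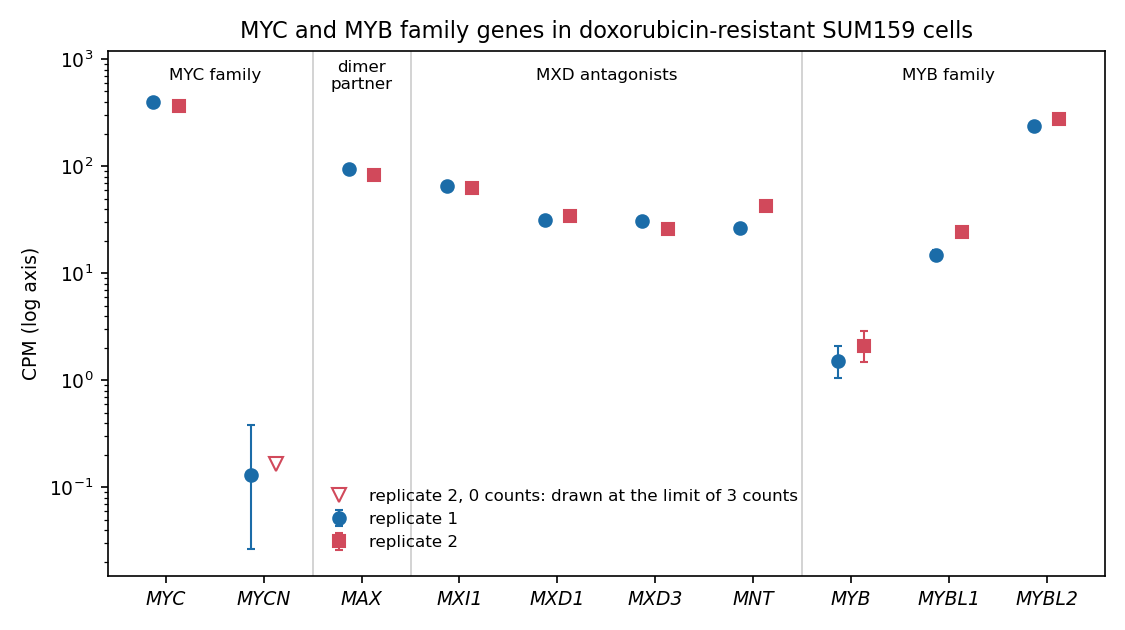
Levels in CPM (log axis) of the 10 genes in replicate 1 (circles) and replicate 2 (squares), ordered by role, with exact 95% counting intervals where they exceed the symbol. The open triangle stands for the 0 counts of MYCN in replicate 2, drawn at the limit of 3 counts. The genes reach from MYCN, at 0.130 CPM in replicate 1, to MYC at 396 and 364 CPM.

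All 4 antagonists of MYC were expressed, each at a lower level per exonic length than MYC and MAX. MXI1 was the most abundant of them. Located at 111967363 to 112047123 of chromosome 10, it had 65.9 and 63.0 CPM, or 64.5 ± 2.07 CPM (SD, n = 2), the closest agreement between libraries among the antagonists. MXD1, a gene usually linked to terminal differentiation, is at 70124820 to 70170077 of chromosome 2 and had 31.3 and 34.6 CPM. MXD3, the member of its family known to rise in S phase, is at 176728462 to 176739758 of chromosome 5 and had 30.9 and 26.1 CPM. MNT, the broadly expressed antagonist that keeps its partner MAX in resting and dividing cells alike, lies on chromosome 17 from 2287367 to 2304398. Its 26.3 CPM for replicate 1 and 42.8 CPM for replicate 2 were the widest spread among the antagonists.

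Per exonic length, MXI1 had 10.9 ± 0.350, MXD3 6.01 ± 0.719, MXD1 5.19 ± 0.368 and MNT 3.97 ± 1.34 RPKM (SD, n = 2 each). MNT was the lowest of them in both libraries, with 3.02 and 4.91 RPKM. MXI1 made up 43.5% and 40.2% of the summed RPKM of the antagonists. The 4 antagonists together came to 0.396 of the RPKM of MYC in replicate 1 and 0.445 in replicate 2, a mean ratio of 0.420 ± 0.0351 (SD, n = 2). Of the summed RPKM of MYC, MYCN and the antagonists, MYC held 71.6% and 69.2%. With MYCL1, MXD4 and MGA, further genes whose products pair with MAX, counted in as well, the share of MYC was 63.4% and 61.3%, and that of MXD4 was 10.8% and 9.38%. The exons of MXD3 overlap RAB24 on the same strand over 19.5% of their length and PRELID1 on the opposite strand over 24.2%. PRELID1 had 4931 and 3081 counts, against 712 and 469 for MXD3, so the level of MXD3 is uncertain where the counting of shared reads is not known. MXD1 overlaps SNRNP27 on the same strand over 3.7% of its exonic length.

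**Figure D2:**
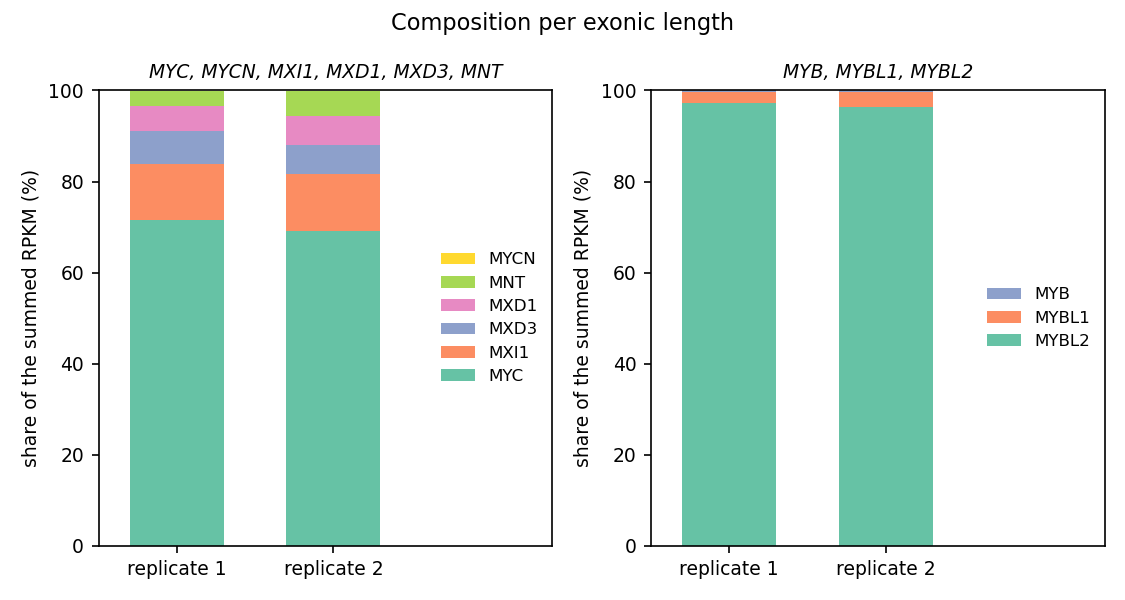
Share of the summed RPKM, in percent, held by MYC, MYCN, MXI1, MXD1, MXD3 and MNT (left) and by MYB, MYBL1 and MYBL2 (right) in each library. MYC takes 71.6% and 69.2% of the left bars and MYBL2 takes 97.4% and 96.3% of the right bars.

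In the MYB family, MYBL2 was far above MYBL1 and MYB in both libraries. MYBL2, at 42295659 to 42345135 of chromosome 20, had 5424 and 4952 counts, or 235 and 275 CPM, and stood at the 94.4th percentile of CPM among the genes at the minimum count. MYBL1, at 67474410 to 67526482 of chromosome 8, had 339 and 441 counts, or 14.7 and 24.5 CPM. MYB, at 135502446 to 135540311 of chromosome 6, had 35 and 38 counts, or 1.52 and 2.11 CPM, at the 5.0th percentile. The 3 paralogs kept this order in each library, and their values did not overlap. MYBL2 held 97.4% and 96.3% of the summed RPKM of the family, MYBL1 2.33% and 3.29%, and MYB 0.317% and 0.373%.

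Per exonic length, MYBL2 exceeded MYB 307-fold in replicate 1, with an exact 95% counting interval from 220.4 to 441, and 258-fold in replicate 2, from 188 to 365. The mean ratio was 282 ± 34.6 (SD, n = 2). The ratio of MYBL2 to MYBL1 was 41.7 and 29.3, and these libraries differed beyond counting error, with intervals from 37.4 to 46.7 and from 26.6 to 32.4. The trend of the log2 ratio of the libraries (replicate 2 over replicate 1) with length, described below, stands at −0.22 for MYBL2 and 0.15 for MYBL1. Its part in this difference was not tested. MYBL1 exceeded MYB 7.36-fold and 8.81-fold. These ratios rest on the length taken for each gene. With the longest transcript in place of all exons, MYBL2 exceeded MYB 194-fold, and without any length it exceeded MYB 143-fold in counts. No annotated gene overlaps MYBL1 or MYBL2. An antisense gene covers 1.9% of the exonic length of MYB.

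MYB is a gene of blood cells, so markers of these cells were read beside it. Of 6 such markers, PTPRC, the leukocyte antigen CD45, had 48 and 31 counts and SPI1 had 4 and 2. CD34 and ITGAM had 2 and 0 counts each, and CD3E and HBB were at 0 in both libraries. The markers summed to 2.43 and 1.84 CPM, and their part in the level of MYB was not tested. In bulk RNA, few cells with much MYB RNA and many cells with little of it cannot be told apart. In monolayer doxorubicin-resistant cells, the paper lists MYB among the most upregulated genes found by single-cell and not by bulk RNA-seq. It proposes that such genes were overexpressed in only a very small share of the cells. The labelled cell type was checked as well. The mesenchymal genes VIM, FN1, CDH2 and ZEB1 all reached the minimum count, and the epithelial genes CDH1, EPCAM, ESRP1 and CLDN4 had at most 13 counts. Among receptor genes used to class such tumors, ESR1 and PGR had at most 11 counts, and ERBB2 had 99.7 ± 6.56 CPM (SD, n = 2).

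Ordered by mean RPKM, the members ran from MYBL2 with 92.0 ± 10.2 RPKM (SD, n = 2) through MYC, MAX, MXI1, MXD3, MXD1, MNT and MYBL1 with 2.71 ± 0.958 RPKM to MYB with 0.330 ± 0.0764 RPKM and MYCN. Among neighbours in this order, only MNT and MYBL1 had libraries that overlapped, at 3.02 RPKM for MNT in replicate 1 and 3.39 RPKM for MYBL1 in replicate 2. MXD3 and MXD1 were set apart by as little as 5.50 against 5.45 RPKM, and MXD1 and MNT by 4.93 against 4.91 RPKM. The first place depends on the length. By all annotated exons MYBL2 exceeded MYC 1.49 ± 0.252-fold (SD, n = 2), whereas by the longest transcript of each gene, a choice made after the values were seen, the ratio was 0.930 ± 0.158, with 0.819 in replicate 1 and 1.04 in replicate 2, so the order turned only in replicate 1. With the longest transcript the mean of MNT also stood above that of MXD1, at 7.01 ± 2.36 and 5.91 ± 0.419 RPKM (SD, n = 2 each). This order turned only in replicate 2, with 8.68 RPKM for MNT and 6.21 for MXD1. In replicate 1 they had 5.34 and 5.615 RPKM. The places of MAX, MXI1, MXD3, MYBL1, MYB and MYCN were the same under both lengths.

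At the minimum mean count of 20, 9 of the 10 members passed, MYCN being the exception, against 52.8% of all symbols. The median of all 10 members, MYCN included, was 33.8 CPM. It was 34.1 CPM for the genes at that minimum and 1.89 CPM for all symbols.

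The libraries were then compared at each gene by the 2-sided exact binomial test of edgeR, which sets these 2 libraries against each other and not conditions. It called 57.7% of 13744 genes at an adjusted p below 0.05, with 27.6% higher in replicate 1 and 30.1% higher in replicate 2. Of the 9 members tested, 6 were called, 3 in each direction, which is near that background. MYC and MAX were higher in replicate 1, with log2 ratios of replicate 2 to replicate 1 of −0.12 and −0.20 (adjusted p = 7.71e-07 and 0.000109, exact binomial test of edgeR). MXD3 was also higher in replicate 1, by a log2 ratio of −0.24 (adjusted p = 0.00899, same exact test). MNT, MYBL1 and MYBL2 were higher in replicate 2, with log2 ratios of 0.70, 0.74 and 0.23 (adjusted p = 1.85e-18, 5.96e-12 and 8.89e-15, same exact test). MXI1, MXD1 and MYB, at log2 ratios of −0.07, 0.14 and 0.47, were not called (adjusted p = 0.343, 0.111 and 0.229, same exact test). By its construction, a negative binomial exact test that takes the spread between these libraries as its error calls few genes, and it does not bear on whether the members differ. It called none of the members, at an adjusted or an unadjusted p below 0.05, and 39 of all genes, or 731 at an unadjusted p below 0.05.

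A trend with length runs through these libraries, in that longer genes tended to have higher CPM in replicate 2. Over 13030 genes, which are not independent replicates, exonic length and log2 ratio had a Spearman rho of 0.513. The members were therefore also given relative to a smoothed trend (lowess). MNT has the longest exonic sequence of the members, 8701 bp, and at that length the trend stands at 0.23, which leaves 0.48 of its log2 ratio of 0.70. MYBL2, of 2776 bp, is among the shortest, and the trend there runs the other way. Its log2 ratio of 0.23 stood at the 68.5th percentile of all genes tested as measured and, at 0.45 above the trend, at the 87.1st after it. After the trend was taken off, MYB stood at 0.44 and MYBL1 at 0.59, so the 3 MYB paralogs lay between the 86.7th and the 91.7th percentile. MNT, at the 88.2nd percentile, lay in the same range. The place of MYB rests on 35 and 38 counts, and MYB was not called between the libraries. MYC at −0.20, MAX at −0.29, MXI1 at −0.13 and MXD3 at −0.22 lay below the trend, and MXD1 at 0.05 lay close to it. What sets the libraries apart along length was not tested, and it cannot be told apart from the replicate.

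**Figure D3:**
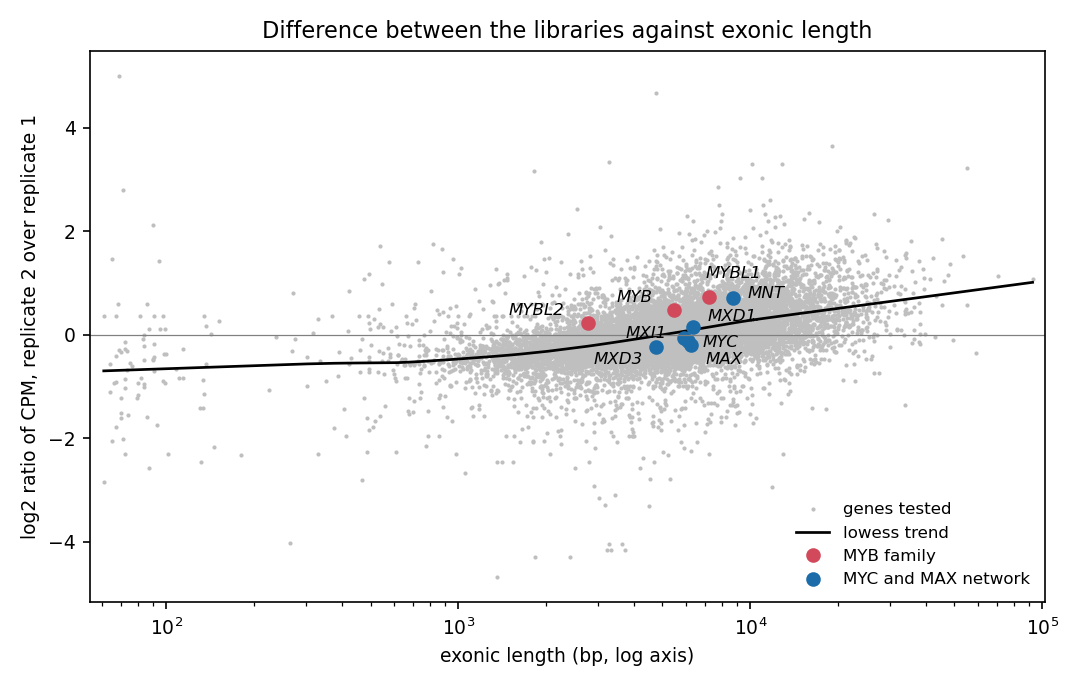
Log2 ratio of CPM, replicate 2 over replicate 1, against exonic length in bp on a log axis, for the genes tested (grey), with the lowess trend as a line. The MYB paralogs (red) lie above the trend, by 0.44 to 0.59, with MYB on 35 and 38 counts. Of the MYC and MAX network genes (blue), MNT lies 0.48 and MXD1 0.05 above the trend, and MYC, MAX, MXI1 and MXD3 lie below.

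The wider MAX network was also expressed, with 5 of 6 further partners at the minimum count, against 52.8% of all symbols. MXD4, a close relative of MXD1, had 69.2 ± 9.28 CPM and, per length, 10.1 ± 1.35 RPKM (SD, n = 2), which differed from MXI1 by less than its spread. MLXIP, or MondoA, a glucose sensor that pairs with MLX in place of MAX, had 34.9 and 74.8 CPM, and its relative MLXIPL had 3.27 ± 0.293 CPM (SD, n = 2). MGA, which pairs with MAX in a repressive complex and was picked after its values were seen, had 11.8 and 36.9 CPM. MLXIP and MGA had their higher level in replicate 2, while the other 4 partners had log2 ratios below 0 and the median of the 6 was −0.14. TXNIP, a target of MondoA, had 386 and 229 CPM, and ARRDC4, another, had 26.0 ± 0.601 CPM (SD, n = 2). All 14 listed cofactors of MYC reached the minimum count, against the same 52.8%, with a median of 100.4 CPM. The lowest were ZBTB17 (MIZ1) with 38.6 ± 2.30 CPM and the acetyltransferase KAT5 with 45.7 ± 0.716 CPM (SD, n = 2 each). The highest were the deacetylase HDAC1 with 201 ± 26.8 CPM and the helicase RUVBL2 with 203 ± 20.2 CPM (SD, n = 2 each).

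Of 20 genes known to be induced by MYC, 19 reached the minimum count, against 52.8% of all symbols. The median of all 20, not scaled to length, was 172 CPM, against 34.1 CPM for all genes at that minimum. Many of the 20 serve ribosome formation. The highest were the nucleolar proteins NPM1 with 2226 ± 192 CPM and NCL with 1201 ± 108 CPM (SD, n = 2 each). At the low end, TERT, the catalytic subunit of telomerase, had 39 and 25 counts, and CCND2, which encodes cyclin D2, had 1 and 2. Of 7 genes known to be repressed by MYC, 6 reached the minimum count. The median of the 7 was 73.65 CPM, also above the 34.1 CPM. The stress gene GADD45A had 122 ± 11.3 CPM (SD, n = 2) and the growth arrest gene GAS1 had 128 and 87.1 CPM. NDRG2 had 59 and 25 counts, and CDKN2B, which encodes the CDK inhibitor p15, was at 0 in both libraries, for which the limit of 3 counts corresponds to 0.130 and 0.167 CPM. Of the induced genes tested between the libraries, 7 of 19 were higher in replicate 1 and 4 in replicate 2, and of the repressed genes 5 of 6 and 0, against 27.6% and 30.1% of all genes (exact binomial test of edgeR). MYC itself was higher in replicate 1. Relative to the length trend, the median log2 ratio was −0.10 for the induced and −0.39 for the repressed genes. MYC stood at −0.20 on that scale. Whether either list follows MYC was not tested. Most genes of both lists were thus measurable, and no untreated sample sets a reference for either.

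The genes of the MuvB complex, with which MYBL2 acts, were all expressed. All 13 genes listed for MuvB and for the DREAM complex, the repressor form with RBL1 or RBL2, reached the minimum count. Among all symbols 52.8% did so. The median of the 13 was 39.6 CPM. The list also holds FOXM1 and DYRK1A, which are not subunits of these complexes. The chromatin subunit RBBP4 had 229 ± 11.6 CPM and FOXM1, which takes over from MYBL2 later in the cycle, had 133 ± 28.8 CPM (SD, n = 2 each). The lowest were LIN37 with 10.1 ± 0.445 CPM and E2F5 with 14.7 ± 1.74 CPM (SD, n = 2 each). Per exonic length MYBL2, with 84.8 and 99.2 RPKM, was above each of these 13 genes. Of them E2F4, picked after its values were seen, was the highest with 29.9 ± 2.85 RPKM (SD, n = 2). The longest transcript was not used as the length for these 13 genes. All 20 mitotic target genes of MYBL2 and MuvB reached the minimum count, against 52.8% of all symbols, with a median of 97.9 CPM. TOP2A, the target of doxorubicin, and the mitotic cyclin gene CCNB1 were the highest with 559 ± 128 and 419 ± 17.0 CPM, and the kinase gene AURKB with 34.2 ± 2.53 CPM and the centromeric histone CENPA with 30.5 ± 0.197 CPM were the lowest (SD, n = 2 each). In the exact binomial test of edgeR, 10 of the 20 were higher in replicate 2 and 2 in replicate 1, against 30.1% and 27.6% of all genes. Their median log2 ratio was 0.10, and 0.33 relative to the length trend, where MYBL2 itself stood at 0.45 and all genes at −0.003. Whether these targets follow MYBL2 was not tested.

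Of 7 known targets of MYB in blood cells, 3 reached the minimum count, against 52.8% of all symbols, and the median was 0.198 CPM, against 1.89 CPM for all symbols. ADA, adenosine deaminase, had 27.6 ± 3.28 CPM (SD, n = 2) and the survival gene BCL2 had 5.86 and 11.9 CPM. The stem cell factor receptor gene KIT was at 0 in both libraries, and CD34 had 2 and 0 counts. By contrast, all 7 cofactors through which MYB acts, most of them used by many transcription factors, reached the minimum count, with a median of 80.0 CPM. CEBPB had 388 ± 88.7 CPM (SD, n = 2) and KMT2A, listed as MLL, had 58.3 and 160 CPM, while MEN1 and TAF12 had 66.0 ± 4.55 and 18.1 ± 2.09 CPM (SD, n = 2 each).

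**Figure D4:**
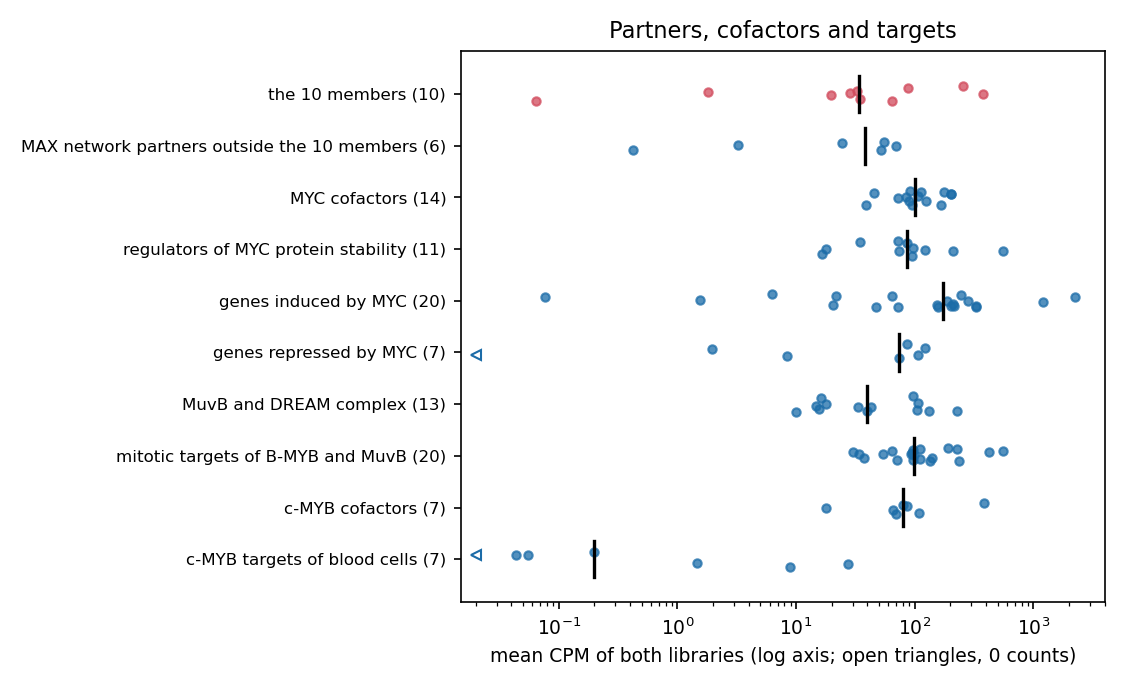
Mean CPM of both libraries, on a log axis, for the 10 members (red) and for genes of 9 lists (blue), each point a gene, with the number of genes in brackets, the median as a bar, and genes with 0 counts as open triangles. Medians run from 0.198 CPM for targets of MYB in blood cells to 172 CPM for genes induced by MYC.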

How the data were processed

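For each library the authors deposited a table of raw read counts by gene symbol. Per the paper and the labels, reads of directional 100-bp single-end libraries were mapped to hg19 with HISAT2 and counted inside genes with HTSeq in Galaxy. For versions, gene annotation, strand setting and shared reads, the sources used here give nothing. From the deposited counts, CPM were computed with the total of all symbols, and RPKM with the exonic length of all transcripts in the GENCODE annotation (version 44, lifted to GRCh37), to which 90.8% of the symbols matched. At 1 count, CPM is 0.0434 in replicate 1 and 0.0556 in replicate 2. Intervals are exact (Clopper-Pearson or Poisson, 95%) and cover counting error only, since reads carried no molecular identifiers and are not independent molecules.

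The libraries were compared with the exact binomial test of edgeR, Benjamini-Hochberg adjusted over genes with at least 10 counts over both. It was first run on counts simulated with counting error alone. Such counts cannot show how the test behaves under the further spread of real libraries. Log2 ratios used a prior of 0.5 counts. The lowess fit used a fraction of 0.5 of the genes. The members, gene lists and tests were chosen with earlier results of these data known. All members are named, and of each list over 4 genes the 2 highest and the 2 lowest. No test between conditions was possible. Protein sequences of the paralogs were not analysed here. Some marker genes were left out and are not reported. Alternatives covered scaling (TMM, DESeq2 size factors, totals without the 10 most abundant genes), length, filter, prior, test, minimum count and each library left out. Python 3.11.15, scipy 1.17.1, statsmodels 0.14.6, R 4.3.3, edgeR 4.0.16 and DESeq2 1.42.0 were used.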

Additional observations from a re-analysis of the deposited data

How the results depend on the processing

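The levels of the members moved little with scaling: their median was 33.7 to 35.6 CPM under TMM, DESeq2 size factors and totals without the 10 most abundant genes, and 31.1 to 38.7 CPM with a library left out. The ratios rest on the length. With the longest transcript, MYBL2 to MYB was 194, MYBL2 to MYBL1 was 26.0 and MYC to MAX was 3.66. Without length scaling, MYBL2 to MYB was 143, MYBL2 to MYBL1 was 13.6 and MYBL1 to MYB was 10.7. With the longest transcript, an alternative chosen after seeing the data, the mean of MYBL2 to MYC turned from 1.49 to 0.930, below 1 in replicate 1 (0.819) and above it in replicate 2 (1.04). With a library left out, MYBL2 to MYB was 258 to 307, MYBL2 to MYBL1 29.3 to 41.7, MYBL1 to MYB 7.36 to 8.81, MYC to MAX 4.30 to 4.54 and the antagonists to MYC 0.396 to 0.445. MYC to MYCN was 3666 with the longest transcript, 5221 without length and 1371 without replicate 2, and it has no value without replicate 1, where MYCN is at 0. The negative binomial exact test called 39 genes and 0 members, against 7930 and 6 in the exact binomial test, since it takes the spread between the libraries as error, and it does not bear on whether the members differ. The filter, TMM and DESeq2 size factors left 6 members called. The rho of the length trend was 0.578 with the longest transcript. Of the members, 8 reached a mean count of 50, all but MYB and MYCN. No paired analysis was possible because the samples form 1 group. Depth limits statements on MYCN, at 3 counts or fewer.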

Other observations

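Genes around MYC on chromosome 8 were also read. PVT1, a long noncoding RNA gene downstream of MYC from 128806772 to 129199347 of GRCh37, had 4712 counts in replicate 1 and 3577 in replicate 2. Its level was 202 ± 3.96 CPM (SD, n = 2). As measured, its log2 ratio between the libraries was −0.04, against −0.12 for MYC. PVT1 was not placed relative to the length trend, so which of them differed less apart from length is not given. ASAP1, which lies further downstream, had 96.4 and 143 CPM. In contrast, PCAT1, on the other side of MYC, had 0 counts and 1 count. Of the 9 listed neighbours and antisense genes, 8 are in the count files. Of these 5 reached a mean count of 20, against 52.8% of all symbols, and MYCNOS was at 0 in both libraries.

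Regulators of the MYC protein, which is turned over rapidly, were all above the minimum count, 11 of 11, against 52.8% of all symbols. Their median was 85.8 CPM. SET, an inhibitor of the phosphatase that destabilizes MYC, led with 557 ± 10.4 CPM (SD, n = 2). The ubiquitin ligase HUWE1 had 108 and 317 CPM. FBXW7, the ligase subunit that recognizes phosphorylated MYC, was among the lowest with 17.8 ± 1.55 CPM, and USP28, a deubiquitinase that opposes it, had 16.5 ± 2.12 CPM (SD, n = 2 each). Protein levels were not measured in these data.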
